A study of Homo sapiens with 24 samples.

Results

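The genes described here are 10 interferon-induced effectors: the IFIT genes IFIT1, IFIT2, IFIT3 and IFIT5, the 2′-5′-oligoadenylate synthetase family genes OAS1, OAS2, OAS3 and OASL, the dynamin-like GTPase gene MX1, and ISG15. They were chosen by symbol as a list of antiviral effectors, and all 10 of them were found among the 28277 genes listed in each of the 2 count tables of the series. Each was followed over 8 conditions of the ovarian cancer lines PEO1 and PEO4.

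Interferons are secreted signals that act through cell-surface receptors and the JAK kinases to activate a transcription factor complex, with IRF9 as a subunit, that binds interferon-stimulated response elements in the promoters of its target genes. IFIT proteins bind foreign or incompletely capped RNA, OAS enzymes respond to double-stranded RNA by making 2′-5′-oligoadenylates, MX1 blocks viral nucleocapsids, and ISG15 is a ubiquitin-like protein that is conjugated to other proteins. Tumour cells can express such genes without any added interferon.

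PEO1 and PEO4 are high-grade serous ovarian carcinoma lines from before and after the onset of resistance to chemotherapy. PEO1 A and PEO4 A were untreated, both with genotype WT in the labels, and PEO1 A is deficient in BRCA2 while PEO4 A has it. PEO1 B carries the genotype BRCA2+, a spontaneous reversion that restored BRCA2, and PEO4 B carries the genotype WT. PEO1 B and PEO4 B were each left untreated or given 5 µM pyridostatin (PDS), a small molecule that binds G-quadruplex structures, for 2 or 6 h. No vehicle was named for the untreated cells, and each condition had 3 biological replicates. Each line is 1 cell line, so a difference between PEO1 and PEO4 is a difference between those lines, and PEO1 B is a variant line that was not tested here against PEO1 A.

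Poly(A)-selected RNA was sequenced, with 32528913 to 63882077 assigned reads per library in the A pair, 18699929 to 22375644 in the untreated B libraries and 33260167 to 43713947 in the PDS libraries. Ribosomal RNA genes took 0.217 to 0.474% of the counts in untreated B libraries and 0.0163 to 0.0369% in PDS libraries. Depth and ribosomal share therefore separated untreated from treated B libraries completely, and their part in the treatment comparisons cannot be told apart from that of PDS. The comparison of 6 h with 2 h of PDS was made within libraries of the same kind. All 8 epithelial carcinoma markers were above 1 CPM in every group. The 3 plasmacytoid dendritic cell markers were at 0 counts in every group but PEO1 B at 2 h of PDS, where 2 of them were at 0 and the summed level reached at most 0.0298 CPM.

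The promoter sequences are shown first because 8 of the 10 RefSeq promoters held here for these genes carried an interferon response element sequence, and PDS binds quadruplexes. The promoters span 250 bases before to 50 bases after a transcription start (RefSeq, GRCh38.p14), and 7 of the 10 genes had a promoter among those held here. IFIT2, OAS2 and OASL had none, so their promoters were not searched. A response element pattern, GAAA followed by any 2 bases and GAAA again, was searched on both strands. It occurred in 8 of the 10 promoters, which belonged to 6 of the 7 genes, against 3.57% of all 35116 promoters. In the windows below the match is in capitals, written 5′ to 3′ along the gene's strand, so that a match on the other strand starts and ends with TTTC. Adjacent matches overlap in the ISG15 promoter, whose matches began 113 and 107 bases before the start. The MX1 match shown lies 12 to 21 bases after the first of its 3 starts, and the others shown lie before a start.
IFIT1, chr10:89392497-89392526, + strand: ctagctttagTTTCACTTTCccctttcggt
IFIT3, chr10:89332468-89332497, + strand: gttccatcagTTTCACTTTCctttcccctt
IFIT5, chr10:89414513-89414542, + strand: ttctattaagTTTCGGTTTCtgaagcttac
OAS3, chr12:112938321-112938350, + strand: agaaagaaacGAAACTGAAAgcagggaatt
MX1, chr21:41420559-41420588, + strand: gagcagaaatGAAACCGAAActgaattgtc
ISG15, chr1:1013380-1013409, + strand: tcgggaaaggGAAACCGAAActgaagccaa

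OAS1 held no match in its window, which says only that these letters were not there. A quadruplex pattern of 4 runs of at least 3 G, separated by 1 to 7 bases, was searched on both strands. It occurred in 3 of the 10 promoters, a share similar to the 25.0% of all promoters. These belonged to 2 of the 7 genes, MX1 and ISG15. A match of each gene is shown, and the other MX1 match (window chr21:41420463-41420514) lies on the opposite strand. Whether PDS binds these sequences was not tested. The pattern is in capitals, and it overlaps no response element match.
MX1, chr21:41426180-41426220, + strand: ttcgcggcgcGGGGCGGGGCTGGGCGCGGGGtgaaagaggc
ISG15, chr1:1013256-1013296, + strand: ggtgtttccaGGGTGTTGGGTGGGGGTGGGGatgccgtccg

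On GRCh38 (GENCODE release 44), the IFIT genes lie together on chromosome 10, with IFIT2 at chr10:89283694-89309271, IFIT3 at chr10:89327307-89377473, IFIT1 at chr10:89392546-89406487 and IFIT5 at chr10:89414568-89421605. OAS1 (chr12:112905856-112933219), OAS3 (chr12:112938051-112976460) and OAS2 (chr12:112978395-113011723) are neighbours on chromosome 12, and OASL is elsewhere on it (chr12:121017763-121039246, - strand). MX1 is at chr21:41420020-41470071 and ISG15 at chr1:1001138-1014540. LIPA overlaps IFIT1, IFIT2 and IFIT3 on the opposite strand, TMPRSS2 overlaps MX1, and an antisense gene overlaps OAS1, OAS2 and OAS3. Antisense genes without a symbol also overlap ISG15. Whether the authors' counting used strand is not given in the sources used here, so reads in those overlaps could not be assigned to a strand. On the same strand, IFIT6P overlaps IFIT3 and a gene without a symbol overlaps IFIT2, which no strand setting would separate.

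The comparison of untreated lines asked whether PEO4 and PEO1 differed in these effectors. All 10 were higher in PEO4 than in PEO1, in both pairs. In the A pair, 10 of 10 were called higher against 12.6% of the 15882 genes tested and 0 lower against 13.1%, with a median log2 fold change of 3.90 against -0.01 over all genes. In the untreated B pair, 10 of 10 were called higher against 12.2% of the 17020 genes tested and 0 lower against 12.6%, with a median of 4.01 against a median of -0.00 over all genes. A gene was called when the p of the edgeR quasi-likelihood test, after Benjamini-Hochberg adjustment, was under 0.05 and its log2 fold change was over 1 in size. All PEO4 libraries lay above all PEO1 libraries for 10 of 10 in the A pair, against 33.3% of all genes, and for 10 of 10 in the B pair, against 33.8%. In bulk RNA, fewer cells of a type and less RNA per cell cannot be told apart. Summed levels of the 4 fibroblast markers were 32.4 to 36.9 CPM in PEO1 A and 8.23 to 13.3 CPM in PEO4 A, but 5.14 to 7.19 CPM in untreated PEO1 B and 29.4 to 31.0 CPM in untreated PEO4 B. COL1A1, the most abundant of them, was lower in PEO4 A (log2 fold change -1.83 ± 0.218) and higher in untreated PEO4 B (1.99 ± 0.222). COL1A2 was higher in PEO4 in both pairs, at 3.93 ± 0.354 in the A pair, and with 39 to 344 reads per untreated PEO4 B library against 1 to 2 in PEO1 B. PDGFRB, another fibroblast marker, was lower in PEO4 A (-4.93 ± 0.354) and not called in untreated PEO4 B (-0.84 ± 0.716). The endothelial markers PECAM1 (2.48 ± 0.605) and VWF (1.73 ± 0.553) were higher in untreated PEO4 B. In the A pair neither was called (-0.90 ± 0.464 and 0.79 ± 0.412). CD14, a leukocyte marker, was lower in PEO4 in both pairs (-2.37 ± 0.249 and -1.36 ± 0.180). Of the epithelial markers, KRT7 was lower in PEO4 in both pairs (-2.71 ± 0.0887 and -1.66 ± 0.0664). PAX8 was called higher in PEO4 A (1.56 ± 0.0813) and MSLN in untreated PEO4 B (1.34 ± 0.131). The part of these markers in the result was not tested.

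**Figure D1:**
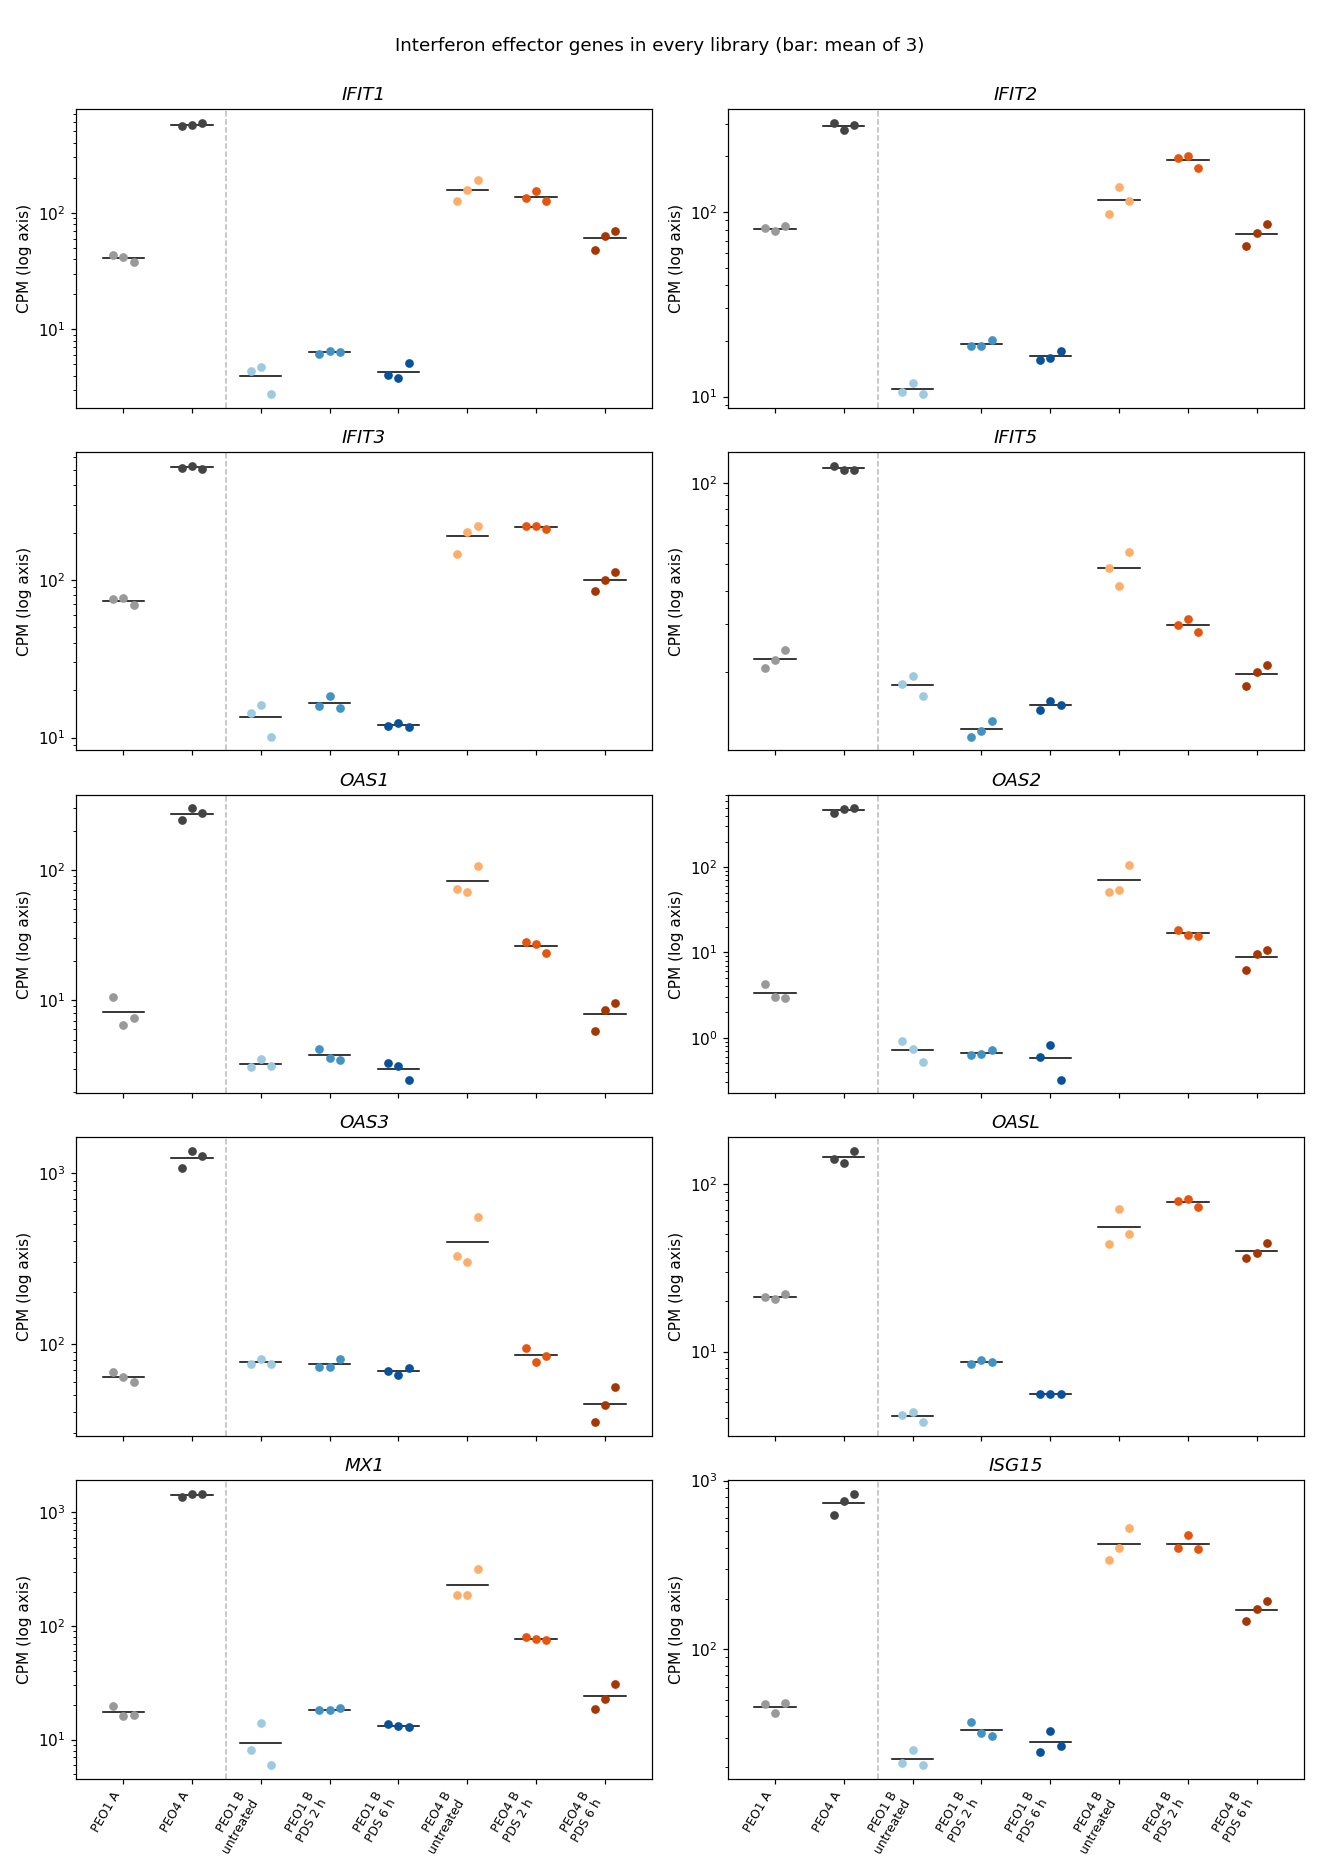
Level of each gene (CPM, log axis) in every library of the 8 conditions, with a bar at the mean of 3 libraries and a dashed line between the A table and the B table, which were normalized separately. All PEO4 A libraries lie above all PEO1 A libraries for every gene, and the PEO4 B levels of OAS1, OAS2, OAS3 and MX1 step down from untreated to 2 h and 6 h of PDS.

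OAS2, whose enzyme makes 2′-5′-oligoadenylates, differed most. It was at 4.25, 2.99 and 2.93 CPM (read counts scaled to the library size by the TMM method) in the PEO1 A libraries and at 428.5, 483.6 and 490.4 CPM in the PEO4 A libraries. The groups did not overlap, and OAS2 was 137.5-fold higher in PEO4 A (log2 fold change 7.10 ± 0.147 SE, edgeR adjusted p = 5.6e-12). In the untreated B pair, OAS2 was at 0.911, 0.744 and 0.527 CPM in PEO1 B and at 50.8, 53.3 and 105.2 CPM in PEO4 B. PEO4 B replicate 3 stood apart above the other two, and every PEO4 B library was far above every PEO1 B library. The log2 fold change was 6.59 ± 0.410 (edgeR adjusted p = 5.3e-09), and 6.16 without that replicate.

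MX1 was at 19.6, 16.0 and 16.5 CPM in PEO1 A and at 1360.8, 1444.9 and 1460.1 CPM in PEO4 A. This was the second largest difference of the A pair (log2 fold change 6.35 ± 0.115, edgeR adjusted p = 1.3e-12). In the untreated B pair MX1 was at 8.10, 14.0 and 5.97 CPM in PEO1 B and at 188.1, 188.9 and 317.5 CPM in PEO4 B, again without overlap (log2 fold change 4.62 ± 0.296, edgeR adjusted p = 9.7e-09). ISG15 was at 42.0 to 48.0 CPM in PEO1 A and 621.0 to 835.9 CPM in PEO4 A, and at 20.6 to 25.2 CPM in untreated PEO1 B and 336.5 to 520.8 CPM in untreated PEO4 B. Its log2 fold changes were 4.01 ± 0.120 and 4.22 ± 0.188.

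OAS1 and OAS3, the other enzymes of the family, were also far higher in PEO4. OAS1 was 32.9-fold higher in PEO4 A and 25.2-fold higher in PEO4 B. OAS3 was 19.1-fold higher in PEO4 A (1224.5 ± 138.9 against 64.0 ± 4.05 CPM, SD, n = 3) but only 5.05-fold higher in PEO4 B (392.9 ± 137.5 against 77.9 ± 3.16 CPM). OAS3 was the OAS gene with the highest level per length in untreated PEO1 B. OASL, an OAS relative without synthetase activity, was 6.80-fold and 13.3-fold higher.

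Among the IFIT genes, IFIT1 was 13.9-fold higher in PEO4 A (572.6 ± 18.5 against 41.3 ± 2.90 CPM) and 39.9-fold higher in untreated PEO4 B (158.2 ± 31.7 against 3.96 ± 1.05 CPM). IFIT3, which forms complexes with IFIT1, was 6.99-fold and 14.0-fold higher. IFIT2 had the smallest difference in the A pair (3.59-fold) and IFIT5 the smallest in the B pair (2.72-fold). IFIT5 was at 18.1, 19.4 and 16.3 CPM in untreated PEO1 B and at 48.6, 41.7 and 55.7 CPM in untreated PEO4 B, without overlap.

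**Figure D2:**
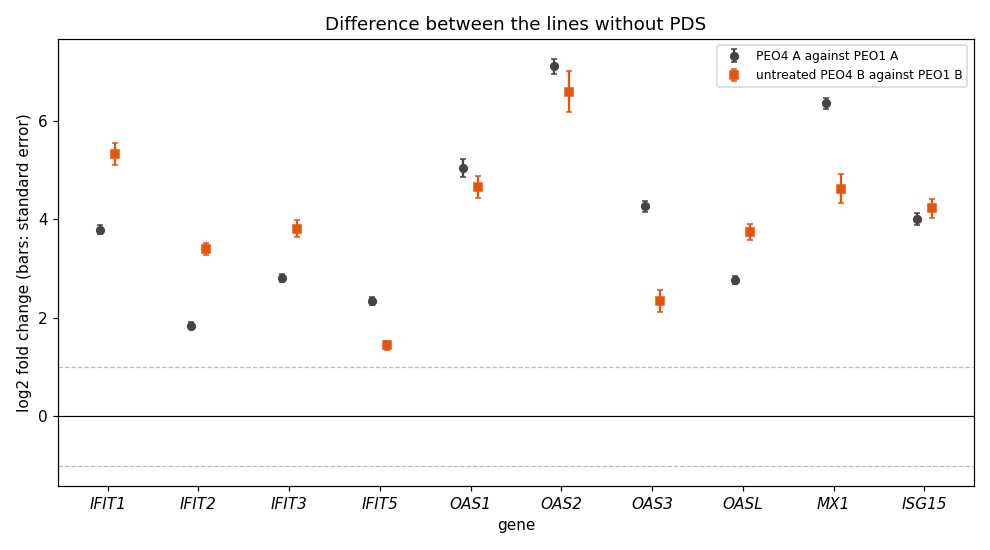
Log2 fold change of PEO4 against PEO1 for each gene in the A pair and in the untreated B pair, with standard errors and dashed lines at a log2 fold change of 1. Every point lies above 1, from 1.84 for IFIT2 to 7.10 for OAS2 in the A pair and from 1.44 for IFIT5 to 6.59 for OAS2 in the B pair.

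PDS was given to ask how the lines' transcription responds to G-quadruplex targeting. In PEO4 B the effectors fell, in steps that differed between genes. At 2 h, 4 of the 10 were called lower (OAS1, OAS2, OAS3 and MX1) against 11.0% of all genes tested, and 0 were called higher against 6.40%. By adjusted p alone 2 were higher at 2 h against 33.3% and 5 lower against 32.0%. At 6 h, 7 of the 10 were called lower against 16.3% and 0 higher against 6.26%, with a median log2 fold change of -1.35 against -0.03 over all genes, and by adjusted p alone all 10 were lower against 35.2%. The 2 h and 6 h comparisons share the same 3 untreated libraries. Untreated PEO4 B replicate 3 had the highest level of its group for 8 of the 10 genes, the exceptions being IFIT2 and OASL.

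OAS1 was at 72.2, 68.0 and 107.2 CPM in untreated PEO4 B, at 27.9, 27.1 and 23.2 CPM after 2 h and at 5.82, 8.39 and 9.61 CPM after 6 h. No library of any of these conditions overlapped the next. OAS1 fell by 1.66 on the log2 scale at 2 h (SE 0.169, edgeR adjusted p = 5.0e-07) and by 3.39 at 6 h (SE 0.188, edgeR adjusted p = 3.4e-10), a level 10.5-fold below untreated.

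OAS2 was at 18.4, 16.2 and 15.5 CPM at 2 h and at 6.27, 9.64 and 10.8 CPM at 6 h, below all untreated libraries. It fell by 2.06 (SE 0.258) and by 2.98 (SE 0.275) on the log2 scale. OAS3 was at 328.5, 299.5 and 550.8 CPM untreated, at 94.4, 78.0 and 85.2 CPM at 2 h and at 34.6, 43.8 and 55.4 CPM at 6 h. It fell by 2.19 (SE 0.210) and by 3.14 (SE 0.220). At 6 h every PEO4 B library was below every PEO1 B library of any condition for OAS3, whose lowest PEO1 B value was 65.6 CPM, so that the order of the lines was turned for this gene and for no other of the 10.

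MX1 was at 80.4, 76.1 and 75.1 CPM at 2 h and at 18.6, 22.7 and 30.6 CPM at 6 h. It fell by 1.58 (SE 0.240, edgeR adjusted p = 6.4e-05) and by 3.28 (SE 0.261, edgeR adjusted p = 9.7e-08) on the log2 scale. At 6 h its PEO4 B libraries overlapped the PEO1 B libraries at 2 h of PDS. Without untreated replicate 3, the 2 h log2 fold changes were -1.43 for OAS1, -1.64 for OAS2, -1.87 for OAS3 and -1.29 for MX1, and all 4 were still called.

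IFIT2 and OASL went the other way at 2 h, though under the fold threshold. IFIT2 was at 97.5, 136.3 and 114.6 CPM untreated and at 195.3, 201.7 and 173.0 CPM at 2 h, without overlap (log2 fold change 0.71 ± 0.104, edgeR adjusted p = 9.1e-06). It was then at 65.5, 77.3 and 85.6 CPM at 6 h, below every untreated library (log2 fold change -0.61 ± 0.105, edgeR adjusted p = 4.9e-05). OASL was at 43.9, 70.7 and 50.5 CPM untreated, at 78.8, 81.3 and 72.5 CPM at 2 h and at 36.2, 38.9 and 44.3 CPM at 6 h. Its 2 h libraries lay above all untreated ones (log2 fold change 0.50 ± 0.116), while its 6 h libraries overlapped them (log2 fold change -0.46 ± 0.118, edgeR adjusted p = 0.00198).

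IFIT1, IFIT3 and ISG15 were not distinguishable from untreated at 2 h. ISG15 was at 336.5, 396.6 and 520.8 CPM untreated and at 397.0, 475.6 and 391.4 CPM at 2 h, and the groups overlapped (log2 fold change 0.01 ± 0.157, edgeR adjusted p = 0.955). At 6 h it was at 148.1, 172.2 and 192.9 CPM, below all of these (log2 fold change -1.29 ± 0.161, edgeR adjusted p = 6.3e-06). IFIT1 gave log2 fold changes of -0.20 ± 0.159 at 2 h and -1.39 ± 0.163 at 6 h, and IFIT3 of 0.20 ± 0.148 and -0.93 ± 0.151. IFIT3 was called at 6 h in 6 of 17 alternative settings, looser thresholds among them, and its log2 fold change reached -1.09. It passed the fold threshold, for instance, without untreated PEO4 B replicate 1 (-1.08) and without the 6 h replicate 3 (-1.02). IFIT5 was lower at both times by adjusted p, with log2 fold changes of -0.71 ± 0.0879 and -1.31 ± 0.0904, and passed the fold threshold at 6 h.

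**Figure D3:**
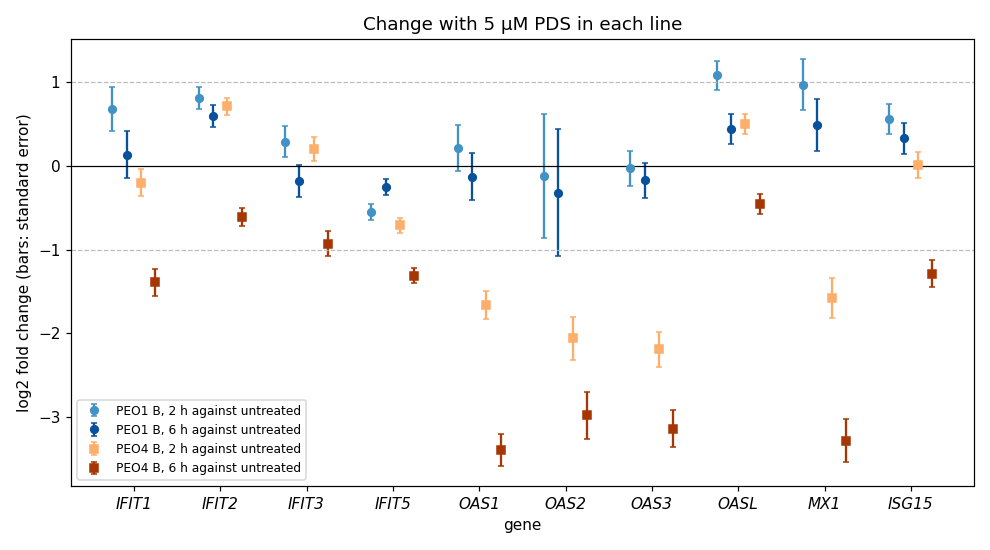
Log2 fold change of each gene after 2 or 6 h of 5 µM PDS against untreated cells in PEO1 B and PEO4 B, with standard errors and dashed lines at log2 fold changes of 1 and -1. In PEO4 B at 6 h the points run from -0.46 for OASL to -3.39 for OAS1, while in PEO1 B all 10 lie between -0.55 and 1.08 at both times.

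Between 2 h and 6 h of PDS, where the libraries were alike in depth and ribosomal share, 6 of the 10 were called lower in PEO4 B (IFIT1, IFIT2, IFIT3, OAS1, MX1 and ISG15) against 9.71% of all genes and 0 higher against 2.27%, and by adjusted p alone all 10 were lower against 31.3%. In each of the 10 genes all 6 h libraries lay below all 2 h libraries, against 35.2% of all genes tested. The largest of these changes was for OAS1, with a log2 fold change of -1.73 ± 0.186 (edgeR adjusted p = 1.4e-06). The smallest was for IFIT5, at -0.60 ± 0.0896 (edgeR adjusted p = 2.9e-06). Without the 6 h replicate 3, 9 were called, OAS2 (-1.08), OAS3 (-1.13) and OASL (-1.04) being the added ones. Levels of the 4 fibroblast markers summed to 29.4 to 31.0 CPM in untreated PEO4 B, 8.47 to 12.2 CPM at 2 h and 3.29 to 4.49 CPM at 6 h, with 2 of the 4 above 1 CPM in each group, and those of the 3 endothelial markers to 1.31 to 2.72, 0.408 to 0.764 and 0.0610 to 0.191 CPM. Those of the 4 leukocyte markers summed to 1.57 to 2.61, 5.75 to 6.27 and 1.79 to 2.25 CPM, with CD14 alone above 1 CPM and PTPRC and CD3E at 0 counts. CD14 was called higher at 2 h (1.57 ± 0.171) and lower from 2 h to 6 h (-1.56 ± 0.157), and gave 0.01 ± 0.192 at 6 h against untreated. Of the epithelial markers, MSLN was called lower than untreated at 2 h (-1.23 ± 0.130) and at 6 h (-2.29 ± 0.135), and MUC16 at 6 h (-3.40 ± 0.491). Both were also called lower from 2 h to 6 h. In PEO1 B, MUC16 was lower than untreated at 2 h (-2.29 ± 0.468) and at 6 h (-2.59 ± 0.475). The part of these markers in the result was not tested.

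In PEO1 B few changes were called. At 2 h, 1 of the 10 was called higher, against 1.18% of all genes, and 0 were called lower, against 6.39%. That gene was OASL, at 4.17, 4.38 and 3.78 CPM untreated and at 8.47, 8.87 and 8.71 CPM at 2 h, without overlap (log2 fold change 1.08 ± 0.173, edgeR adjusted p = 4.5e-05). Scaled by library totals OASL was at 0.93 and not called, and without untreated PEO1 B replicate 2, MX1 was called too (1.40). By adjusted p alone, 5 were higher at 2 h against 26.4% of all genes and 1 lower against 26.2%. Besides OASL these were IFIT2 (log2 fold change 0.81 ± 0.130), MX1 (0.97 ± 0.303), IFIT1 (0.68 ± 0.265) and ISG15 (0.56 ± 0.181). IFIT5 was the lower one, at 18.1, 19.4 and 16.3 CPM untreated and 11.5, 12.1 and 13.2 CPM at 2 h (log2 fold change -0.55 ± 0.0987, edgeR adjusted p = 5.2e-05).

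At 6 h in PEO1 B, 0 of the 10 were called in either direction, against 1.29% of all genes higher and 6.83% lower. By edgeR's adjusted p alone 1 was higher against 27.0% of all genes and 1 lower against 26.0%, namely IFIT2 higher (log2 fold change 0.59 ± 0.132, adjusted p = 0.00108) and IFIT5 lower (-0.25 ± 0.0971, adjusted p = 0.0342). At an unadjusted p under 0.05, 2 were higher against 29.1% of all genes and 1 lower against 28.8%. DESeq2 also called 0 at this time. From 2 h to 6 h 0 were called by edgeR or DESeq2, against 0.0705% of all genes higher and 0.0999% lower, and OASL was lower by adjusted p alone, as were 2.98% of all genes (log2 fold change -0.64 ± 0.153, adjusted p = 0.0157). At an unadjusted p under 0.05, 1 was higher from 2 h to 6 h against 11.0% of all genes and 3 were lower against 9.23%. OAS2 had only 11 to 27 reads per PEO1 B library. Its change had to be well above its standard errors of 0.740 and 0.762 on the log2 scale to be detected. OAS3 had 1596 to 2827 reads per library and log2 fold changes of -0.03 ± 0.209 and -0.17 ± 0.209.

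The test of the difference between the lines' responses used an interaction term. At 2 h, 3 of the 10 were called, all with a more negative response in PEO4 B, against 4.92% of all genes, and 0 with a less negative one, against 6.10%. MX1 differed by a log2 of -2.55 ± 0.384 (edgeR adjusted p = 1.9e-04), from a response of 0.97 in PEO1 B to one of -1.58 in PEO4 B. OAS3 differed by -2.16 ± 0.293 and OAS1 by -1.87 ± 0.316. The difference for IFIT2, whose responses were 0.81 and 0.71, was -0.10 ± 0.166 (edgeR adjusted p = 0.675). Without untreated PEO4 B replicate 1, IFIT1 (-1.03) and OAS2 (-2.14) were called as well. OAS2 was also called without untreated PEO4 B replicate 3 (-1.52), and IFIT1 without untreated PEO1 B replicate 2 (-1.05).

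At 6 h, 8 of the 10 were called with a more negative response in PEO4 B against 9.34% of all genes and 0 with a less negative one against 5.42%, with a median difference of -1.57 against 0.01 over all genes. The largest was for MX1 (-3.77 ± 0.398, edgeR adjusted p = 6.1e-06), followed by OAS1 (-3.26 ± 0.335) and OAS3 (-2.97 ± 0.298). IFIT3 (-0.75 ± 0.243, edgeR adjusted p = 0.0206) and OASL (-0.90 ± 0.217, edgeR adjusted p = 0.00232) were under the fold threshold. OASL passed it without untreated PEO4 B replicate 1 (-1.04). OAS2 (-2.66 ± 0.823, edgeR adjusted p = 0.0174) was not called without PEO1 B 6 h replicate 1 (-2.63) or 2 (-2.35), and IFIT5 (-1.06 ± 0.132) fell short without untreated PEO4 B replicate 3 (-0.95), PEO4 B 6 h replicate 1 (-0.99) or untreated PEO1 B replicate 3. The interaction compares changes and not levels, and only OAS3 ended below its PEO1 B level.

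Levels can be compared between genes only per length, here as CPM per kb of the MANE Select transcript. All exons of a gene together can be much longer, 17.984 against 2.776 kb for MX1 and 13.021 against 1.631 kb for OAS1. The order of the genes therefore depends on this choice of length, and no other length was tried. On that scale ISG15 had the highest level of the 10 in every B condition, with 656.2 ± 147.5 CPM per kb in untreated PEO4 B and 35.1 ± 3.92 in untreated PEO1 B. In untreated PEO4 B, MX1 (83.4 ± 26.8 CPM per kb), IFIT3 (79.1 ± 16.3), OAS3 (59.5 ± 20.8) and OAS1 (50.6 ± 13.2) came next, and their SD ranges overlapped. OAS2 was lowest of the 10 in every PEO1 B condition, at 0.157 ± 0.0416 CPM per kb untreated. IFIT5 was lowest in untreated PEO4 B, at 12.1 ± 1.74 CPM per kb, with an SD range that overlapped that of OAS2 (15.1 ± 6.65). At 6 h of PDS IFIT3 (41.6 ± 5.91) and IFIT2 (22.4 ± 2.97) stood above MX1 (8.63 ± 2.21) and OAS1 (4.87 ± 1.19) in PEO4 B, which had fallen further.

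**Figure D4:**
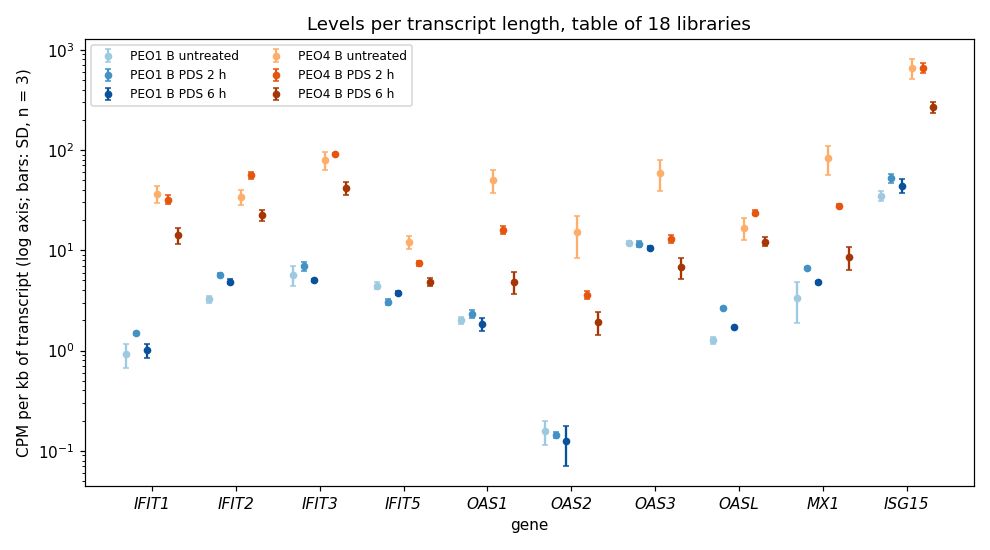
Mean level of each gene per kb of transcript (CPM per kb, log axis) in the 6 B conditions, with SD over 3 libraries. ISG15 is highest in each condition, and OAS2 is lowest in all PEO1 B conditions, at 0.125 to 0.157 CPM per kb.

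The genes most like OAS2, the member with the widest range over the 6 B conditions (6.61 on the log2 scale), were sought among 12906 genes by the root mean square difference of centred condition means of log2 CPM. They were WNT11 (0.34), CFI (0.39), IFI6 (0.42), SYT13 (0.55) and LOC101929331 (0.55). Over the PEO1 B conditions OAS2 (0.579 to 0.727 CPM), WNT11 (0.652 to 0.757) and CFI (0.344 to 0.549) were near the floor. Their likeness in those conditions is therefore one of near absence. WNT11, a Wnt ligand gene, was at 73.0 ± 18.2 CPM in untreated PEO4 B, 34.1 ± 6.47 at 2 h and 9.95 ± 0.999 at 6 h, against 0.757 ± 0.251 in untreated PEO1 B. Among the 10 themselves, the closest pairs were IFIT3 with ISG15 (0.17), IFIT2 with OASL (0.20), IFIT3 with OASL (0.31), OASL with ISG15 (0.32) and OAS1 with MX1 (0.33). The furthest pair was OAS2 with OAS3 (2.10). The gene nearest to both IFIT2 and OASL was RSAD2, which encodes the antiviral enzyme viperin, at a difference of 0.08 and 0.18. Genes outside the members and the pathway lists were nearest to IFIT1 (AOC1, 0.33), IFIT5 (NIPBL-DT, 0.12) and OAS1 (CALHM3, 0.23). The same held for OAS3 (ALDH3B2, 0.14) and ISG15 (HSD17B14, 0.16). For IFIT5 the nearest member, OAS3 (0.61), ranked 4019 among the genes compared.

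The rest of the interferon pathway was followed in a list of 79 genes. In the untreated B pair 40 of 67 tested were called higher in PEO4 B and 2 lower, against 12.2% and 12.6% of all genes, with a median log2 fold change of 1.53. In the A pair 51 of 71 were higher and 1 lower, against 12.6% and 13.1%. Of the ligands, IFNB1 and IFNA1 were at 0 counts in every B library. IFNL1, a type III interferon, was at 2.13 ± 0.494 CPM in untreated PEO4 B, and had 0 to 2 reads per untreated PEO1 B library. Among receptors and signalling genes 4 of 15 were higher, among them IRF9 (2.83 ± 0.103), a subunit of the response element complex, and SOCS3, an inhibitor of JAK signalling, was lower (-1.39 ± 0.153). Of the 10 tested RNA and DNA sensors 5 were higher, led by IFIH1 (2.46 ± 0.109) and RIGI (2.17 ± 0.110), which detect double-stranded RNA. Of 5 tested genes of ISG15 conjugation 4 were higher, led by HERC5 (2.86 ± 0.142), an ISG15 ligase, and UBA7 (2.05 ± 0.228), its activating enzyme. Of 29 other interferon-induced genes 25 were higher. BST2, a virus-tethering protein gene, was at 63.8 ± 32.1 CPM in untreated PEO4 B and had 1 to 3 reads per untreated PEO1 B library.

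After 2 h of PDS in PEO4 B, 21 of 67 pathway genes were called lower and 2 higher, against 11.0% and 6.40% of all genes. After 6 h 37 were lower and 0 higher, against 16.3% and 6.26%. At 6 h, the changes on the log2 scale included falls of IRF9 (-2.40 ± 0.0966) and IFNGR2 (-1.81 ± 0.240), a subunit of the interferon gamma receptor, among 6 of 15 receptor and signalling genes. IRF7, a factor that drives interferon genes, fell (-2.72 ± 0.177), as did IRF1 (-1.02 ± 0.0887). Among sensors TLR3 (-2.57 ± 0.252) and DHX58 (-1.81 ± 0.118) led 4 of 10, and the ISG15-activating enzyme gene UBA7 (-3.28 ± 0.242) and UBE2L6 (-1.82 ± 0.147), its conjugating enzyme gene, led 3 of 5. Of the 29 other interferon-induced genes 21 fell, led by IFI44L (-4.89 ± 0.361) and BST2 (-4.88 ± 0.328), and IFNL1 fell too (-1.46 ± 0.291). At 2 h the genes called higher were ISG20 (1.69 ± 0.128), an exonuclease gene, and GBP1 (1.62 ± 0.167), a guanylate-binding protein gene.

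In PEO1 B, 1 of the 67 pathway genes was called higher and 3 lower at 2 h, against 1.18% and 6.39% of all genes, and 0 higher and 5 lower at 6 h, against 1.29% and 6.83%. IFI44 was the higher one (1.28 ± 0.138). IFNGR2 was lower at 2 h (-1.61 ± 0.238) and at 6 h (-1.35 ± 0.233). The interferon-induced genes MX2 (-4.06 ± 0.897 and -2.69 ± 0.738) and IFITM2 (-2.29 ± 0.810 and -1.83 ± 0.757) were also lower at both times. XAF1 (-2.24 ± 0.827) and IRF7 (-1.01 ± 0.201) were lower at 6 h, so IRF7 was called lower in both lines. The difference between lines at 6 h was called for 32 of the 67, each with the more negative response in PEO4 B, against 9.34% of all genes with a more negative and 5.42% with a less negative one. Some of the 32 had almost no reads in untreated PEO1 B, among them BST2 (-5.50 ± 1.94) and IFNL1 (-2.37 ± 0.964). Such genes had little room to fall in PEO1 B, so the direction of their difference says little, and a fall there could hardly be called.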

How the data were processed

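RNA was collected from 24 samples of PEO1 and PEO4 cells, 3 per condition. The authors deposited raw read counts per gene, which per the submitters' processing notes came from FastQC, fastp, STAR (hg38) and featureCounts, with no versions. The annotation and strand setting are not given in the sources used here. The A and B tables held 6 and 18 libraries, and 2 and 1 malformed lines were dropped.

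Counts were analysed per table with R 4.3.3 and edgeR 4.0.16: filterByExpr (minimum count 10, minimum total 15), TMM scaling, and a robust quasi-likelihood test on 1 model of group means, with Benjamini-Hochberg adjustment over all tested genes (15882 and 17020). Calls needed an adjusted p under 0.05 and a log2 fold change over 1 in size. Tests were made within a table only. DESeq2 1.42.0, other scalings, filters and thresholds, a replicate block and leaving out each library were tried. The fits were tested on simulated data. Named were all 10 members in every condition and, per pathway list, up to the 2 called genes with the largest changes in each direction, apart from items not reported here. ISG20, GBP1, IFI44, IFNL1, WNT11 and the other likeness genes follow from that rule or from the 5 smallest differences to the widest-ranging member, among genes with a mean log2 CPM of at least 1. IFNA1, IFNB1, the nearest genes of single members, RSAD2 among them, and the pairings of members were chosen after their values were seen. The members and lists were chosen with earlier results of these data known. Replicates with the same number did not deviate together (r of -0.19 to 0.16 in the B table).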

Additional observations from a re-analysis of the deposited data

Results flagged for a closer look

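The responses to PDS differed between PEO4 B and PEO1 B, by the interaction term of edgeR's quasi-likelihood test, for several of the 10 effectors. Values are log2 differences, PEO4 B response minus PEO1 B response. At 2 h they were -1.87 for OAS1, -2.16 for OAS3 and -2.55 for MX1. At 6 h they were -1.52 for IFIT1, -1.20 for IFIT2, -1.06 for IFIT5, -3.26 for OAS1, -2.66 for OAS2, -2.97 for OAS3, -3.77 for MX1 and -1.62 for ISG15. Each rests on 3 libraries in each of 4 groups. For OAS2 the PEO1 B side holds 11 to 27 reads per library.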

How the results depend on the processing

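Of 1810 alternative values of single members, 1725 kept their direction and side of the threshold, 58 newly passed it, 7 no longer did and 20 changed sign. The settings of adjusted p alone and of a log2 threshold of 0.5 reused the main fits. Their values could therefore not change sign or lose a call, and they gave 22 and 19 of the 58. None of the values called in the first place changed sign. With library totals, 0 members were called higher in PEO1 B at 2 h. With adjusted p alone, PEO1 B had 5 higher and 1 lower at 2 h, 1 higher and 1 lower at 6 h and 1 lower from 2 h to 6 h, while PEO4 B had 2 higher at 2 h and 10 lower from 2 h to 6 h, and 5 responses were more negative at 2 h. With a log2 threshold of 0.5 these were 5, 1, 1, 0, 1, 1, 10 and 5. The shares of all genes by adjusted p alone stand above with each comparison within PEO1 B or PEO4 B. No share was counted for the 5 response differences or for the threshold of 0.5. Those counts therefore show only the effect of the setting.

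Leaving out 1 library gave 1 to 2 members higher in PEO1 B at 2 h (2, with MX1 at 1.40, without untreated PEO1 B replicate 2) and 3 to 5 more negative responses at 2 h (5 without untreated PEO4 B replicate 1). The OAS2 response difference at 6 h was no longer called with only the groups compared (-2.65, adjusted p = 0.0551) or without PEO1 B 6 h replicate 1 (-2.63) or 2 (-2.35). That for IFIT5 was no longer called without untreated PEO1 B replicate 3, untreated PEO4 B replicate 3 (-0.95) or PEO4 B 6 h replicate 1 (-0.99).

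The sign changes were near 0. ISG15 in PEO4 B at 2 h was -0.12 with library totals, -0.01 with DESeq2 size factors and with DESeq2's Wald test, -0.05 with upper-quartile scaling, -0.02 with a minimum count of 30, -0.00 with only the groups compared, and -0.12 to 0.20 without 1 library. IFIT1 in PEO1 B at 6 h was -0.02 with library totals. Leaving out 1 library also turned OAS2 (-0.30 to 0.06) and OAS3 (-0.08 to 0.01) in PEO1 B at 2 h, IFIT1 (-0.07 to 0.30) and OAS1 (-0.22 to 0.00) in PEO1 B at 6 h, OAS2 from 2 h to 6 h in PEO1 B (-0.51 to 0.08), and the 2 h response differences of IFIT2 (-0.22 to 0.02) and IFIT3 (-0.26 to 0.08).

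The replicate block changed no call. Replicate numbers did not pair samples, since 1 of 45 same-numbered pairs in the B table correlated above 0.1, and 5 of 18 libraries correlated best with their own number. The tables list no mitochondrial genes, so that alternative left out ribosomal RNA genes alone. Depth limits OAS2 in PEO1 B.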
